A study of Homo sapiens with 6 samples.

Results

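A set of 10 regulators of blood stem cells and leukaemia was followed in U937T:PLZF-RARa, a line derived from the human monocytic leukaemia line U937: WT1, MEIS1, PBX2, PBX3, SOX4, MLLT3, CD44, MSI2, BMI1 and MYB. The members were every probe set of the Affymetrix HG-U133 Plus 2.0 array, a chip that reads each transcript with one or more sets of short probes, whose platform annotation gives exactly 1 of these symbols. This gave 43 of the 54675 probe sets on the array, for 9 of the 10 genes. BMI1, a Polycomb subunit that keeps stem cells renewing, had none, because its 1 annotated probe set also names the read-through gene COMMD3-BMI1, so no value is given for it. RNA came from 3 induced samples, grown for 48 h without tetracycline so that the fusion protein PLZF-RARA was made, and from 3 uninduced samples kept in 0.1 ug/ml tetracycline. Both groups grew in 10% FBS with 0.5 ug/ml puromycin and 1 mg/ml G418. The fusion is driven by a tetracycline-regulated construct in a single engineered line, so the removal of tetracycline and the appearance of the fusion cannot be told apart. The labels do not say whether the replicates were separate cultures, and the p-values therefore cover the spread between these samples alone, which may be technical.

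PLZF-RARA joins the repressor PLZF (ZBTB16) to the retinoic acid receptor RARA and causes a rare subtype of acute promyelocytic leukaemia. The 10 genes hold several layers of the program that keeps immature blood cells dividing. WT1, MYB and SOX4 are DNA-binding transcription factors; MEIS1, PBX2 and PBX3 are TALE homeodomain proteins that bind DNA together with HOX proteins; MLLT3 (AF9) reads acylated histones and is a frequent fusion partner of KMT2A in acute leukaemia. MSI2 (Musashi) is an RNA-binding protein that controls translation in stem cells, and CD44 is the cell surface receptor for hyaluronan and osteopontin.

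Pearson's r was 0.996 to 0.998 within groups and 0.932 to 0.938 across groups, over probe sets, which are not independent. Uninduced replicate 3 had the lowest 75th percentile of log2 values, 6.92. This percentile averaged 7.17 ± 0.02 in induced and 7.05 ± 0.11 in uninduced arrays (SD, n = 3 each; two-sided exact permutation p = 0.1, the smallest that 3 against 3 allows). For GAPDH, whose control probe sets at the 3' and 5' ends report on RNA quality, the 3' signal exceeded the 5' signal on the log2 scale by 0.579 ± 0.034 in induced and 0.503 ± 0.025 in uninduced arrays (SD, n = 3 each; two-sided exact permutation p = 0.1). For the ACTB control probe sets this excess was 1.41 ± 0.10 in induced and 1.25 ± 0.08 in uninduced arrays (SD, n = 3 each; two-sided exact permutation p = 0.2). The part of RNA quality in the results below was not tested. As a check of the labels, RARA probe set 211605_s_at read 7.58 ± 0.17 in induced and 1.87 ± 0.10 in uninduced arrays on the log2 scale (SD, n = 3 each), while the ZBTB16 probe set 205883_at read 3.29 ± 0.59 and 5.25 ± 0.21. Of the other 4 RARA probe sets none rose and 203749_s_at fell, and the part of the transcript that each covers was not analysed here. Of 11 markers of a myelomonocytic line 9 had a probe set of their own and 8 were above the filter, of which 2 rose, PTPRC and CD4, and 6 fell. SPI1 lay at or below the filter on all induced arrays. None of the 7 lymphoid markers with a probe set was above the filter; their summed intensity was 5.75 to 5.85 in induced and 5.45 to 5.58 in uninduced arrays on the log2 scale. Of the 3 erythroid, 5 epithelial and 5 fibroblast markers with a probe set, 1 of each kind was above the filter: EPOR and KRT8, which did not pass the test, and COL1A1, which fell (log2 difference -0.55, adjusted p = 4.84e-04). The summed fibroblast markers were 7.90 to 8.03 in induced and 8.39 to 8.48 in uninduced arrays on the log2 scale, and their part in the results was not tested.

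Promoter windows from RefSeq (GRCh38.p14, 250 bases before to 50 after an annotated start) were read for all 10 genes, which have 15 windows. Retinoic acid receptors bind repeats of a half-site close to AGGTCA, so those letters were searched on both strands. They occurred in 4 of the 15 windows and in 13.8% of all 35116 windows of this length. The 4 windows belong to SOX4, CD44, MSI2 and WT1 and are shown because they hold the letters; the most upstream of the 4 WT1 windows has none and is shown because WT1 had the largest change. Capitals mark AGGTCA, or TGACCT where it lies on the other strand; in the upstream WT1 window they mark a match to GCGNGGGCG, the letters bound by WT1 itself and by EGR proteins, which 9.43% of all windows and 2 of the 15, those of BMI1 and WT1, hold. A match is a description of the letters and not a binding site, and none of the windows holds a pair of these half-sites.
WT1, most upstream start (chr11:32435490-32435789, minus strand): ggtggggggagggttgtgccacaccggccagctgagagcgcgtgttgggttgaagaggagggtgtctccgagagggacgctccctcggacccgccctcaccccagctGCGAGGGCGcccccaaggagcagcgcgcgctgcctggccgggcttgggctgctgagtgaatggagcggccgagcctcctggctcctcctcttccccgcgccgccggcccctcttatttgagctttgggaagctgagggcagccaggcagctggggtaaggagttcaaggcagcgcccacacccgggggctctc
WT1, most downstream start (chr11:32400351-32400650, minus strand): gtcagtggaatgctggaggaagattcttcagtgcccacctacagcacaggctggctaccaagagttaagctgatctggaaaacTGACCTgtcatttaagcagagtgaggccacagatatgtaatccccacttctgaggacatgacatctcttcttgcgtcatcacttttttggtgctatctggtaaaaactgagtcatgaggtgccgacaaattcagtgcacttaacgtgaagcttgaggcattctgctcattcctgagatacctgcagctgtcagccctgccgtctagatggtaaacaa
SOX4 (chr6:21593501-21593800, plus strand): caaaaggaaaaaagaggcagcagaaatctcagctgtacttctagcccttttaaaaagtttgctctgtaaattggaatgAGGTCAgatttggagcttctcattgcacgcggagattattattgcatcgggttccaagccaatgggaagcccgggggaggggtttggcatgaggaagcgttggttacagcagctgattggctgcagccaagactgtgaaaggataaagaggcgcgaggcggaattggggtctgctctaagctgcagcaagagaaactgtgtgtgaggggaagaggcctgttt
CD44 (chr11:35138921-35139220, plus strand): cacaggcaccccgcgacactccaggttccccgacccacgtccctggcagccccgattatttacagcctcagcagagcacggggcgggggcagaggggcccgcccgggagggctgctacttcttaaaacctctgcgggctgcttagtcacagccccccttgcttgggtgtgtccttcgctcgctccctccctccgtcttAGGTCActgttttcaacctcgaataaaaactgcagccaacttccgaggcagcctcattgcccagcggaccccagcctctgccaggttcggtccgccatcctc
MSI2 (chr17:57255601-57255900, plus strand): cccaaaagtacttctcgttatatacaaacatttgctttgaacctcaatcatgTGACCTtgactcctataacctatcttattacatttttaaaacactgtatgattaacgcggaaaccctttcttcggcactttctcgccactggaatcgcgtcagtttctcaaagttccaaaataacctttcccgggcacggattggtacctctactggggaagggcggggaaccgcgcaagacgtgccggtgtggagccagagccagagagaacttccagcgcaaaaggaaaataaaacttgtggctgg

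The half-site lies 172 bases before the start of SOX4, 52 before that of CD44, 198 before that of MSI2 and 167 before the downstream WT1 start. SOX4 signal was lower, and CD44, most MSI2 and WT1 206067_s_at signal higher, in induced cells. Whether these letters bear on the changes was not tested. The letters TGACAG, a half-site of MEIS and PBX proteins, were in 3 of the 15 windows, those of PBX3, BMI1 and WT1, and in 15.8% of all windows. The 2 TGACAG matches of WT1 lie in its downstream window, the first overlapping the marked TGACCT.

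In bulk RNA, fewer cells that express a gene and less RNA per cell cannot be told apart, so the values below are levels per sample. Signal for WT1, MEIS1, PBX2, PBX3, MLLT3, CD44 and MSI2 was higher in induced cells and signal for MYB and SOX4 lower. Testing was limited to probe sets above a filter, a log2 value over 4 on 3 or more of the 6 arrays. Of the 43 member probe sets 28 passed, and 26 of these were above 4 on all 6 arrays. By limma, with p-values adjusted (Benjamini-Hochberg) across the 20552 probe sets tested and a threshold of 0.05, 20 of the 28 were higher in induced cells, 5 lower and 3 did not pass the test. One of the 20, CD44 217523_at, passed the filter through the induced arrays alone and so had to be higher. Of the 27 measured in both groups 19 were higher and 5 lower, and the groups did not overlap for 25. Over all tested probe sets 34.6% were higher and 27.9% lower. The groups did not overlap for 26 of the 28, against 70.2% of all tested probe sets. The median log2 difference was 0.82 over the 28 and 0.03 over all tested probe sets. The genes were chosen with earlier results of these arrays known, so these shares are a description.

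**Figure D1:**
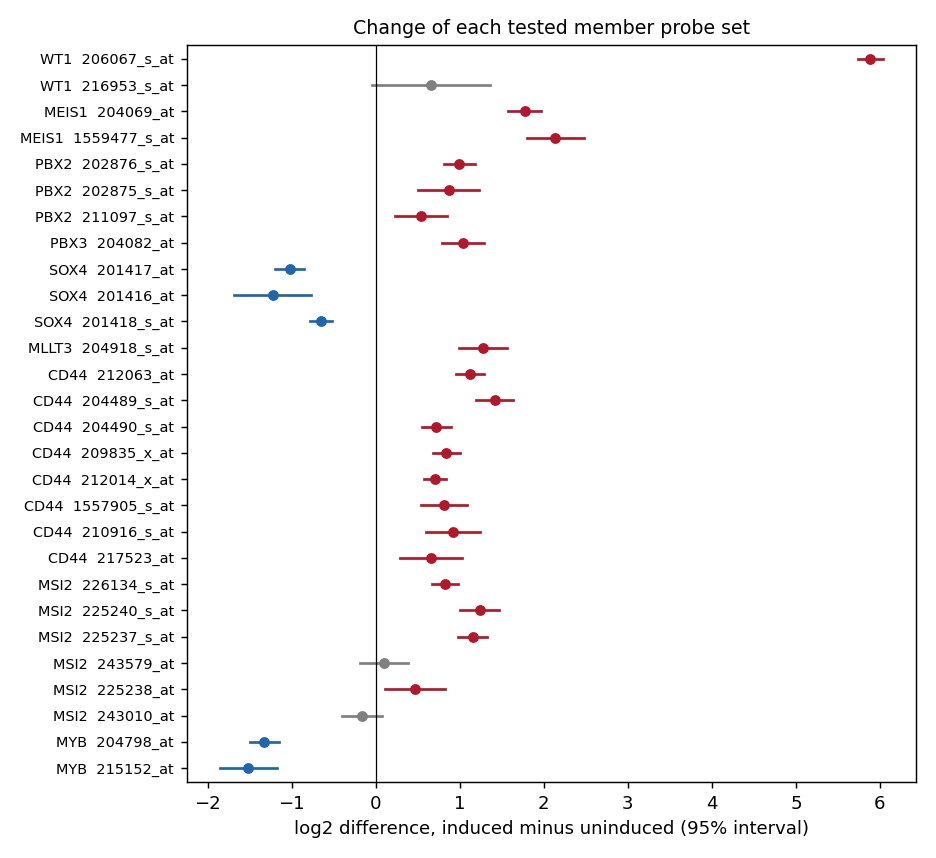
Log2 difference, induced minus uninduced (horizontal axis), of each of the 28 tested member probe sets (rows), with 95% intervals from limma; red points passed the test as higher, blue as lower, grey did not pass. WT1 206067_s_at stands at 5.89, 20 points lie right of zero in red and the 5 blue points belong to SOX4 and MYB.

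WT1, a zinc finger factor that is abundant in many acute leukaemias, gave discordant readings from its 2 probe sets. Probe set 206067_s_at read 12.17, 12.14 and 12.24 in the induced samples and 6.34, 6.22 and 6.33 in the uninduced samples on the log2 scale. The groups lay far apart, and no array differed from its group's mean by more than a small fraction of the gap. On the intensity scale the means were 4660 in induced and 78.8 in uninduced samples. The log2 difference was 5.89 (95% interval 5.73 to 6.04; adjusted p = 3.47e-08), a 59.2-fold rise. In contrast, WT1 216953_s_at read 4.43, 4.26 and 5.33 in induced samples and 4.10, 3.66 and 4.27 in uninduced samples. These values lie around the filter, the groups overlap, and induced replicate 3 is the one array that stands above the others. Its difference was 0.66 (95% interval -0.04 to 1.36; adjusted p = 0.091) and was 0.33 for WT1 216953_s_at without induced replicate 3 (adjusted p = 0.174). It passed as higher with array weights (1.06, adjusted p = 0.017) and with the replicate block (0.66, adjusted p = 0.012).

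The disagreement itself was tested by fitting, for every gene with over 1 tested probe set, the difference on each array between a probe set and the gene's brightest one. For WT1 the brightest probe set exceeded the other by 7.74, 7.89 and 6.91 on the induced arrays and by 2.24, 2.56 and 2.06 on the uninduced arrays. The change of 216953_s_at was lower than that of 206067_s_at by 5.23 on the log2 scale, written as -5.23 (95% interval -5.85 to -4.60; adjusted p = 4.55e-05 over 7715 pairs). Of all pairs in the data 30.9% differed past the threshold. Both WT1 probe sets carry the suffix _s_at, given to probe sets that can bind several transcripts, and which WT1 transcripts each covers was not analysed here. The mean over both probe sets rose by 3.27. Signal of 216953_s_at lay around the filter, where the array processing compresses changes, and the part of this in the disagreement was not tested.

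**Figure D2:**
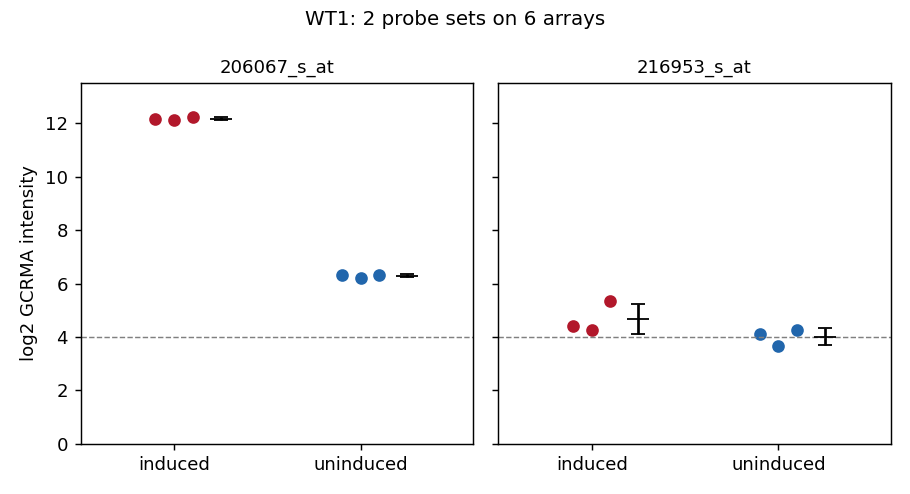
Log2 GCRMA intensity (vertical axis) of the 2 WT1 probe sets in the 3 induced (red, left) and 3 uninduced (blue, right) samples; black marks are means with SD and the dashed line is the filter at 4. The left panel separates the groups (12.14 to 12.24 against 6.22 to 6.34), while in the right panel they overlap.

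By Euclidean distance over the 6 arrays, after each was centred on its own mean, the genes listed nearest to WT1 206067_s_at were NDFIP2, an adaptor of NEDD4-family ubiquitin ligases, MILR1, an immunoglobulin-like receptor of mast cells, and EMP1, a membrane protein. All 3 lay below the filter on every uninduced array, so their distances to WT1 are not measured and are not given. Their place nearest to WT1 is therefore no measure of likeness. With 2 groups this distance picks genes with a similar gap between groups, so the rises below follow from that choice. NDFIP2 read 8.09 ± 0.08 in induced and 2.35 ± 0.02 in uninduced samples (SD, n = 3 each). It was at least 17.1-fold higher, MILR1 at least 40.7-fold and EMP1 at least 26.6-fold. The bound sets the induced mean against a log2 value of 4, since all uninduced arrays lay at or below the filter.

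All 6 tested probe sets of the TALE factors MEIS1, PBX2 and PBX3 rose, as did 34.6% of all tested probe sets. MEIS1, a HOX cofactor that drives leukaemia with HOXA9 in mice, read 9.40, 9.44 and 9.32 in induced and 7.63, 7.73 and 7.48 in uninduced samples with 204069_at. The groups were separate and the rise was 3.42-fold (log2 difference 1.77, 95% interval 1.58 to 1.97; adjusted p = 4.86e-06). Its other probe set, 1559477_s_at, read 7.66, 7.36 and 7.43 in induced and 5.25, 5.63 and 5.14 in uninduced samples. This is a 4.41-fold rise (log2 difference 2.14, 95% interval 1.80 to 2.48; adjusted p = 2.25e-05). The 2 MEIS1 probe sets differed in their change by 0.37 (95% interval 0.08 to 0.65; adjusted p = 0.057), which did not pass the test. It passed in 3 of 13 alternative settings: without induced replicate 2 (0.46, adjusted p = 0.038), without uninduced replicate 2 (0.45, adjusted p = 0.045) and at a filter of 6 (0.37, adjusted p = 0.049).

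PBX3, the PBX family member most often linked to leukaemia with high HOXA expression, has 1 probe set, 204082_at. It read 8.52, 8.63 and 8.37 in induced and 7.56, 7.55 and 7.29 in uninduced samples, a 2.06-fold rise (log2 difference 1.04, 95% interval 0.79 to 1.28; adjusted p = 1.31e-04). Every induced array lay above every uninduced one. PBX2, a broadly expressed member of the same family, read 10.56, 10.68 and 10.59 in induced and 9.75, 9.56 and 9.54 in uninduced samples with its brightest probe set, 202876_s_at, a 1.99-fold rise (adjusted p = 4.43e-05). Its probe sets 202875_s_at and 211097_s_at rose 1.83-fold and 1.46-fold (adjusted p = 0.0021 and 0.0089), also without overlap between groups. Neither change differed from that of 202876_s_at past the threshold, at -0.13 (95% interval -0.42 to 0.17) and -0.45 (-0.79 to -0.11; adjusted p = 0.053). The 211097_s_at difference passed in 4 of 13 alternative settings: without induced replicate 1 (-0.60, adjusted p = 0.012), after quantile normalization (-0.54, adjusted p = 0.024), with array weights (-0.51, adjusted p = 0.032) and at a filter of 6 (adjusted p = 0.046). The fourth PBX2 probe set, 211096_at, lay between 3.46 and 4.42 on all arrays and was not tested.

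**Figure D3:**
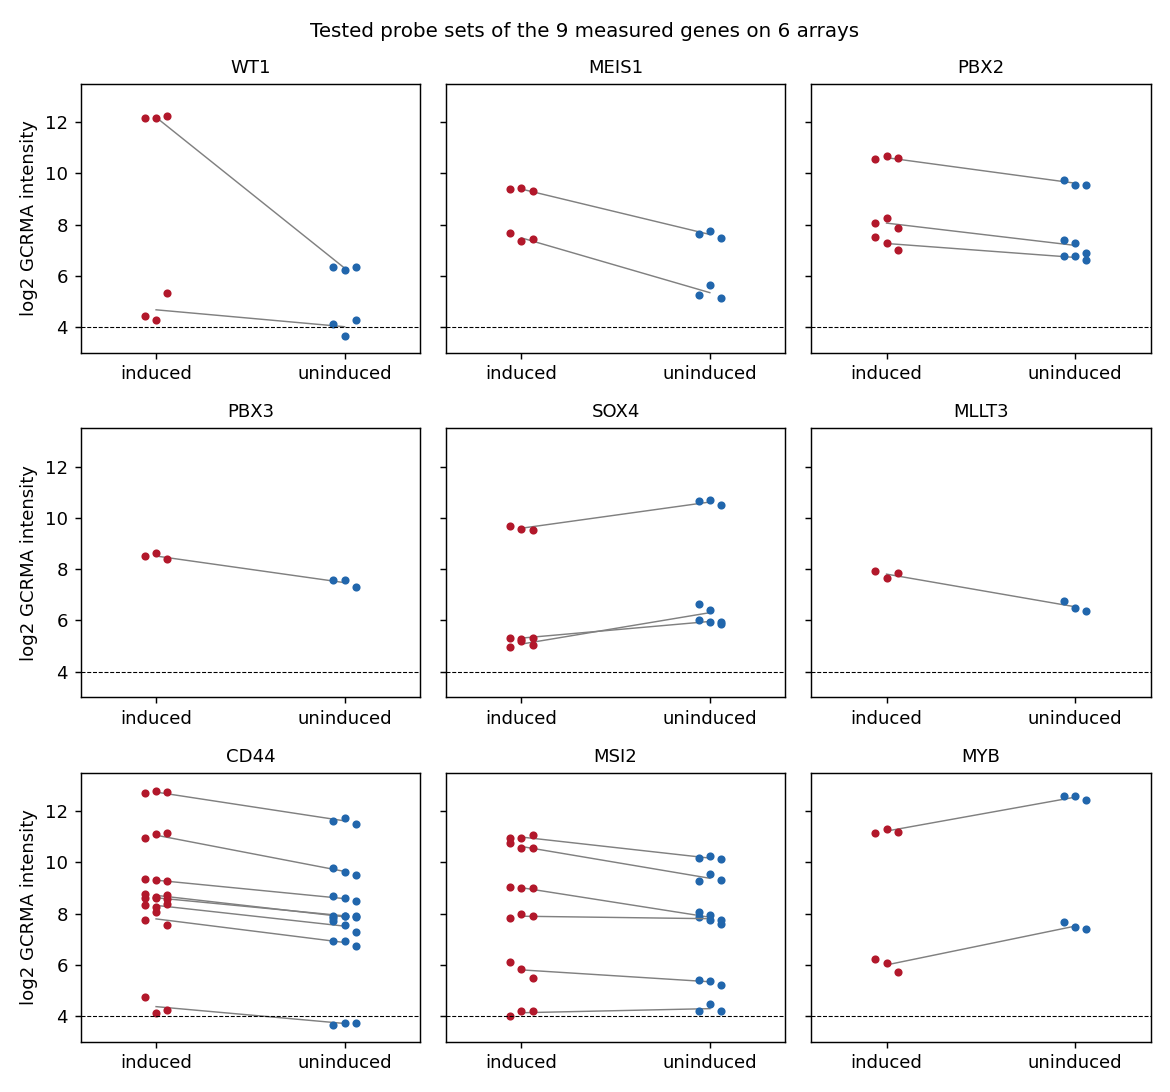
Log2 GCRMA intensity (vertical axis) of every tested probe set of the 9 genes in the 3 induced (red, left) and 3 uninduced (blue, right) samples; grey lines join group means and the dashed line is the filter at 4. Lines slope down to the right in WT1, MEIS1, PBX2, PBX3, MLLT3 and CD44 and up to the right in SOX4 and MYB, and those of MSI2 do not share 1 direction.

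MYB, which sustains the growth of immature blood cells and is needed by many myeloid leukaemias, fell in both of its probe sets. Probe set 204798_at read 11.15, 11.31 and 11.19 in induced and 12.59, 12.59 and 12.45 in uninduced samples. Mean intensity was 2386 in induced and 5972 in uninduced samples, a 2.50-fold fall (log2 difference -1.32, 95% interval -1.50 to -1.15; adjusted p = 9.83e-06). Probe set 215152_at read 6.21, 6.08 and 5.70 in induced and 7.66, 7.48 and 7.38 in uninduced samples, a 2.85-fold fall (log2 difference -1.51; adjusted p = 1.02e-04). The changes of both MYB probe sets differed by -0.19 (95% interval -0.53 to 0.15), which did not pass the test.

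SOX4, an HMG-box factor of progenitor cells, fell in all 3 of its tested probe sets. The brightest, 201417_at, read 9.66, 9.58 and 9.53 in induced and 10.65, 10.68 and 10.52 in uninduced samples, a 2.03-fold fall (log2 difference -1.02, 95% interval -1.20 to -0.85; adjusted p = 2.73e-05). Probe set 201416_at read 4.97, 5.20 and 5.05 in induced and 6.64, 6.40 and 5.86 in uninduced samples, 2.34-fold lower (adjusted p = 0.0012), with more spread among the uninduced arrays. Probe set 201418_s_at was 1.57-fold lower (adjusted p = 7.23e-05), and its smaller fall differed from that of 201417_at by 0.37 (95% interval 0.18 to 0.57; adjusted p = 0.014). This difference did not pass after quantile normalization (0.21, adjusted p = 0.115), without induced replicate 3 (0.34, adjusted p = 0.053) or without uninduced replicate 2 (0.32, adjusted p = 0.053). The other 3 SOX4 probe sets lay between 1.36 and 2.21 on every array and were not tested.

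MLLT3 signal rose in the 1 of its 3 probe sets that was tested. Probe set 204918_s_at read 7.91, 7.65 and 7.85 in induced and 6.75, 6.47 and 6.37 in uninduced samples, a 2.42-fold rise (log2 difference 1.27, 95% interval 0.99 to 1.56; adjusted p = 9.56e-05). The groups did not overlap. Of the untested pair, 204917_s_at read 3.62, 4.44 and 3.92 in induced and 3.14, 3.13 and 2.86 in uninduced samples, with 1 array above the filter. Probe set 1569652_at stayed between 2.97 and 3.63.

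MSI2, an RNA-binding protein whose abundance goes with poor outcome in myeloid leukaemia, gave 4 probe sets that rose and 2 that did not pass. The brightest, 226134_s_at, read 10.97, 10.94 and 11.05 in induced and 10.15, 10.23 and 10.11 in uninduced samples, a 1.77-fold rise (adjusted p = 4.73e-05). Probe sets 225240_s_at and 225237_s_at rose 2.36-fold and 2.22-fold (adjusted p = 4.41e-05 and 1.76e-05), each without overlap between groups. Probe set 225238_at was 1.38-fold higher (adjusted p = 0.031), a call that was lost in 8 of 13 alternative settings, with an adjusted p of 0.0041 to 0.125 over all 13. It was lost when any 1 array other than induced replicate 3 was left out, with log2 differences of 0.32 to 0.50.

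By contrast MSI2 probe set 243579_at read 7.81, 7.96 and 7.91 in induced and 8.05, 7.76 and 7.59 in uninduced samples, so the groups overlapped (log2 difference 0.10, 95% interval -0.19 to 0.38; adjusted p = 0.507). Probe set 243010_at read 4.02, 4.18 and 4.19 in induced and 4.19, 4.47 and 4.20 in uninduced samples, close to the filter (log2 difference -0.16; adjusted p = 0.197). For MSI2 243010_at the difference was -0.068 without uninduced replicate 2 and -0.105 without induced replicate 1, and it passed as lower after quantile normalization (-0.28, adjusted p = 0.032) and median centring (-0.24, adjusted p = 0.049). The changes of both differed from that of 226134_s_at, by -0.72 (95% interval -1.02 to -0.43; adjusted p = 0.0056) and by -0.98 (-1.19 to -0.77; adjusted p = 4.49e-04). The 2 probe sets that rose most differed from it the other way, by 0.42 and 0.33 (adjusted p = 0.018 and 0.016). The first was lost without uninduced replicate 1 (0.37, adjusted p = 0.061) and the second without induced replicate 1 (0.31, adjusted p = 0.051). Which MSI2 transcripts these probe sets read was not analysed here. The remaining 4 MSI2 probe sets lay between 2.07 and 3.07.

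CD44, which binds hyaluronan and helps leukaemic cells lodge in the marrow, has 13 probe sets, of which 8 were tested. All 7 that were measured in both groups rose. The brightest, 212063_at, read 12.71, 12.77 and 12.74 in induced and 11.63, 11.71 and 11.51 in uninduced samples. Mean intensity was 6844 in induced and 3147 in uninduced samples, a 2.18-fold rise (log2 difference 1.12, 95% interval 0.95 to 1.29; adjusted p = 1.70e-05). Probe set 204489_s_at read 10.94, 11.11 and 11.13 in induced and 9.78, 9.63 and 9.52 in uninduced samples and had the greatest CD44 rise, 2.67-fold (adjusted p = 1.98e-05). Log2 differences of the other 5 were 0.71 to 0.92. The groups overlapped for none of the 7, which are readings of 1 gene, and did not overlap for 70.2% of all tested probe sets. The eighth, 217523_at, passed the filter only through the induced arrays (4.74, 4.13 and 4.23, against 3.66, 3.73 and 3.73 in uninduced samples), at least 1.29-fold higher. The 5 untested CD44 probe sets lay between 2.20 and 4.49.

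The size of the CD44 rise depended on the probe set. Set against 212063_at, the change was lower for 212014_x_at by -0.42 (95% interval -0.60 to -0.24; adjusted p = 0.0067) and for 204490_s_at by -0.40 (-0.59 to -0.22; adjusted p = 0.0088). It was higher for 204489_s_at by 0.29 (adjusted p = 0.046), a call lost in 7 of 13 alternative settings, up to an adjusted p of 0.145. It was lost when any 1 array other than uninduced replicate 1 was left out. The other 4 CD44 pairs did not pass. CD44 is known to be spliced into many forms, but the exons these probe sets cover were not analysed here. Over the 6 genes other than WT1 with more than 1 tested probe set, 8 of 18 pairs differed, against 30.9% of all pairs. In 1 of the 8, that of MSI2 243010_at, the measured changes also had opposite signs. The change of MSI2 243010_at itself did not pass the test (-0.16, adjusted p = 0.197), so its sign is not settled.

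**Figure D4:**
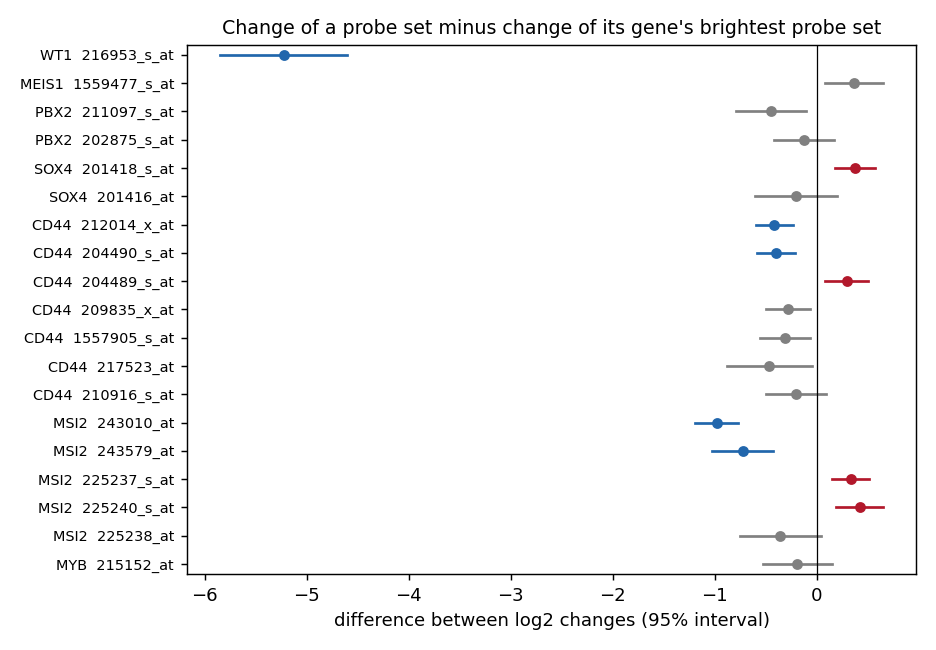
Difference between the log2 change of a probe set and that of its gene's brightest probe set (horizontal axis), for the 19 member pairs (rows), with 95% intervals; coloured points passed the test (red, greater than the brightest; blue, less), grey points did not. WT1 stands at -5.23 and the other pairs lie between -0.98 and 0.42.

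Genes that work beside these regulators were read from 9 lists with 283 genes, of which 256 had a probe set of their own and 165 were tested. Each gene is given by its brightest tested probe set. Of the 165, 78 rose, 47 fell and 40 did not pass, with a median log2 difference of 0.19. Among all 9836 tested genes 35.8% rose and 30.7% fell, with a median of 0.02. The list medians depend on the filter: with none, those of the HOX, CD44, Musashi and stem cell lists were -0.00018, -0.0066, -0.0067 and -0.0042. At a filter of 6 the HOX median was 0.76, that of the CD44 list 0.34 and that of the stem cell list 0.63. On all arrays of 1 group 7 of the 165 genes lay below the filter: 4 in the stem cell list and 1 each in the CD44, MYB and Musashi lists. They passed the filter through the other group alone, so their direction was fixed, and they are counted in the rises and falls. Setting these 7 at their bound left each list's median as given. A bound keeps the direction of a change, so this says little about the medians. By their brightest tested probe sets the 9 measured regulators had 7 rises and 2 falls.

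Of the list of HOX and TALE homeobox genes 9 of 39 were tested, of which 4 rose and 1 fell (median 0.35). The rises include PBXIP1, which is in the list but is not a homeobox gene. HOXC6 read 9.64 ± 0.06 in induced and 7.38 ± 0.22 in uninduced samples (SD, n = 3 each), 4.81-fold higher (adjusted p = 6.34e-06), and HOXC10 was 2.26-fold higher. PBXIP1, a PBX-binding protein, was 4.70-fold and PKNOX1, a TALE relative of MEIS1, 2.39-fold higher. The gene that fell was TGIF2, also a TALE gene, and the TALE genes MEIS2 and TGIF1 did not pass. HOXB3, HOXB4 and HOXB7 were among 18 genes of this list below the filter. HOXA2 was also below the filter, and the other HOXA genes, which include partners of MEIS1 in leukaemia, were not analysed here.

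Of the partners and targets of WT1 8 of 19 tested rose and 7 fell (median -0.0030). The falls numbered 4 without induced replicate 2 and 4 without uninduced replicate 2. The angiogenic factor VEGFA fell to 8.77 ± 0.03 in induced samples, against 10.85 ± 0.05 in uninduced samples (SD, n = 3 each), 4.22-fold lower (adjusted p = 8.23e-07). IRF8, a monocyte factor, was 5.86-fold and JUNB 3.14-fold lower, and the growth factor PDGFA 5.86-fold higher. In the SOX family 3 of 18 genes were tested. SOX7 fell (log2 difference -0.78, adjusted p = 0.032), a call lost in 5 of 12 alternative settings, up to an adjusted p of 0.145. These include leaving out induced replicate 1, induced replicate 2 or uninduced replicate 3. Without uninduced replicate 1 the SOX7 difference was -0.50 (adjusted p = 0.040). SOX15 and SOX12 differed by -0.04 and -0.08 and did not pass.

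Of the MLLT3 partners, which form elongation and histone methylation complexes, 12 of 27 tested rose and 6 fell (median 0.20), or 10 fell after quantile normalization. AFF4, the scaffold of the super elongation complex, was 2.57-fold higher (adjusted p = 1.27e-05), HEXIM1, an inhibitor of the elongation kinase, 1.90-fold and PSIP1, a chromatin tether of KMT2A, 1.84-fold higher. EAF2, an ELL cofactor, was 3.38-fold lower. In the list of Polycomb subunits, 14 of 32 tested rose and 9 fell (median 0.20). The rises include CDKN2A, which is in the list but is not a subunit. RYBP was 2.58-fold higher (adjusted p = 3.58e-06), PCGF3 2.37-fold and PHF1 2.16-fold higher, while PCGF5 was 1.80-fold lower. The relatives of BMI1 in this list went both ways: PCGF2 and PCGF3 rose, and PCGF1, PCGF5 and PCGF6 fell.

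Of the relatives, coactivators and targets of MYB 11 of 27 tested rose and 10 fell (median 0.17). The growth regulator MYC fell to 9.35 ± 0.04 in induced samples, against 12.86 ± 0.07 in uninduced samples (SD, n = 3 each; adjusted p = 2.16e-07). The neutrophil elastase gene ELANE was 6.95-fold lower and SPI1 at least 8.70-fold lower, whereas the stem cell factor TAL1 was 4.64-fold higher (adjusted p = 2.35e-06). KIT, GATA3, CD34 and MPO were below the filter.

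Of the ligands, processing enzymes and linkers of CD44 8 of 17 tested rose and 6 fell (median 0.12). The CD44 ligand SPP1 (osteopontin) was at least 47.3-fold higher. The linkers of CD44 to actin, RDX (radixin) and EZR (ezrin), were 2.17-fold and 1.88-fold higher (adjusted p = 2.17e-05 and 4.46e-05), and ST3GAL6, a sialyltransferase, was 2.40-fold lower. Of the Musashi family and targets 7 of 11 tested rose and 3 fell (median 1.25). SMAD3 was 8.76-fold, TGFBR1 2.54-fold and IGF2BP3 2.38-fold higher, and MYC, also in this list, fell. MSI1, the close relative of MSI2, was below the filter, at 3.37 in induced and 3.39 in uninduced samples.

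Of other stem cell and leukaemia genes 16 of 27 tested rose and 6 fell (median 0.43). TRIB1, a pseudokinase that can cause myeloid leukaemia in mice, was at least 7.75-fold higher, the surface protein CD96 at least 12.3-fold and the tumour antigen PRAME 8.99-fold higher. TRIB1 and CD96 passed the filter through the induced arrays alone and so had to be higher. LYL1, a relative of TAL1, was 4.36-fold lower. CD34, KIT, FLT3 and PROM1, the usual surface markers of stem and progenitor cells, were below the filter in both groups, with means of 2.06 to 2.48 in induced and 2.07 to 2.49 in uninduced samples.

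**Figure D5:**
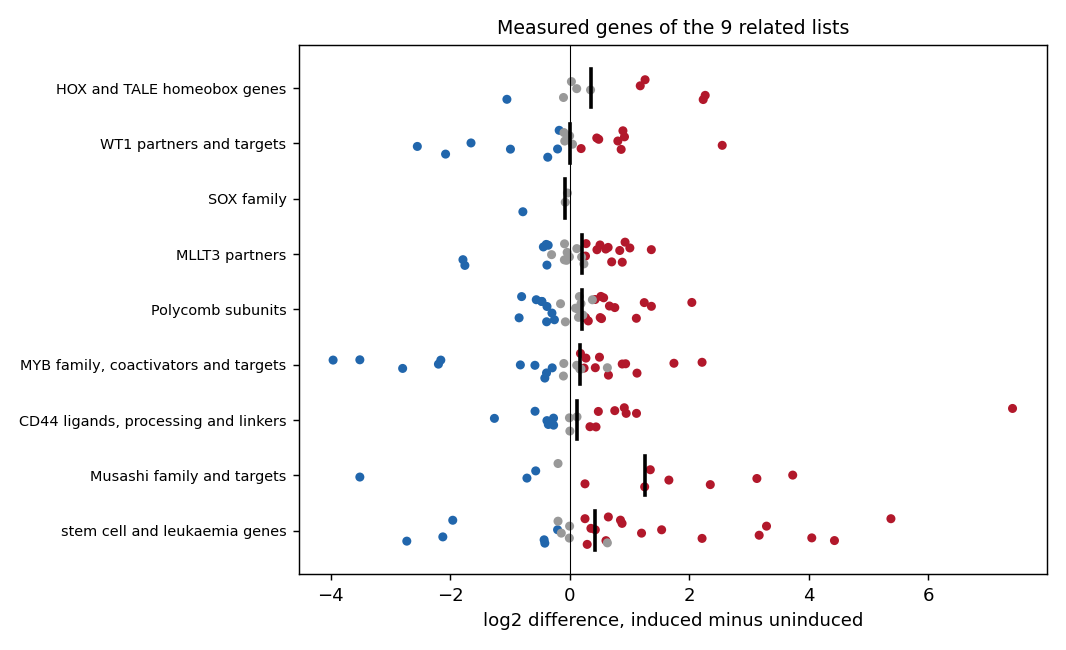
Log2 difference, induced minus uninduced (horizontal axis), of each tested gene (points) in the 9 related lists (rows), with the list's median as a black bar; red passed the test as higher, blue as lower, grey did not. Medians run from -0.08 in the SOX family to 1.25 in the Musashi family and targets, and 8 lists hold points of both colours.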

How the data were processed

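The values deposited by the authors are linear intensities, 1 for each probe set on each array, from GCRMA per the submitters' processing notes. No source used here gives its version or says whether the arrays were normalized together. GCRMA corrects background from probe sequence and draws dim probe sets to a common low value, which compresses changes there. Values ran from 0.914 to 122290. The log2 was taken after raising 6 values under 1 to 1, and 62 control probe sets were left out. Platform annotation gave 1 symbol to 41091 probe sets. Groups came from sample titles. Probe sets with a log2 value above 4 on at least 3 of 6 arrays were fitted on group alone in R 4.3.3, two-sided, by lmFit and eBayes of limma 3.58.1, and adjusted by Benjamini-Hochberg across those 20552. Pairs of probe sets of a gene were fitted the same way. In simulated data over 20552 probe sets, 200 were changed. The fit recovered 56%, 84%, 100% and 100% of changes of 0.5, 1, 2 and 4 on the log2 scale. It called 178 probe sets, of which 8 were wrong calls. A far larger share passed in the real data, so these rates do not carry over to it.

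The members, lists and tests were chosen with earlier results of these data known. All members were described. Up to 4 genes per list were named by smallest adjusted p, with the 3 genes listed nearest to WT1 and the RARA and ZBTB16 probe sets. CDKN2A was named because it is not a Polycomb subunit. PCGF1, PCGF2 and PCGF6 were named as relatives of BMI1, and TGIF1, TGIF2 and MEIS2 as TALE genes. Other genes, named as below the filter or as markers, were chosen after their values were seen. A fold is 2 to the power of the log2 difference; it is "at least", the brighter mean against 4, where no array of the dimmer group exceeded 4. Other settings tried were a filter at 6 or none, quantile normalization, median centring, eBayes with trend and robust options, array weights, a replicate block, each array left out in turn, gene means across probe sets, and dropping _x_at and _s_at probe sets. The number of arrays limits the precision. Figures used matplotlib 3.10.9 in Python 3.11.15.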

Additional observations from a re-analysis of the deposited data

How the results depend on the processing

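Of the 28 tested member probe sets 24 kept their direction and their side of the threshold under every alternative in which they were tested. The WT1 rise with 206067_s_at ranged from 5.80 to 5.93 on the log2 scale, and the difference between both WT1 probe sets from -5.53 to -5.01 (adjusted p at most 6.89e-04); at a filter of 6 the second probe set was not tested. WT1 216953_s_at passed with array weights (1.06, adjusted p = 0.017) and with the replicate block (0.66, adjusted p = 0.012); its adjusted p ran between 0.012 and 0.324. MSI2 243010_at passed after quantile normalization (-0.28, adjusted p = 0.032) and median centring (-0.24, adjusted p = 0.049). MSI2 243579_at turned to -0.0070 without uninduced replicate 3 (adjusted p = 0.963; -0.0070 to 0.220 with each array left out), and SOX12 to 0.017 without induced replicate 3 (-0.194 to 0.017). Neither had passed the test on all arrays.

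A filter at 6 left 3 falls among the member probe sets in place of 5, since only 1 SOX4 probe set passed that filter. Without _x_at and _s_at probe sets 5 rises remained of 20, and WT1, PBX2 and MLLT3 had no tested probe set. Pairs that differed among the other members numbered 20 with no filter, where more pairs were tested, against 8. The labels do not say whether the replicate numbers pair the samples. Deviations from the group means correlated at -0.17, 0.00046 and 0.18 for same-numbered arrays, and not every array correlated best with its own number. With 3 arrays per group these values cannot decide whether the samples were paired. Of the 18 pairs of the other members 8 kept their side of the threshold under every alternative, 4 lost a call under at least 1 and 6 gained one. The replicate block gave 21 rises and 5 falls among member probe sets, 7 differing pairs, and 78 rises and 42 falls in the lists. The array median differed by -0.0018, induced minus uninduced, and the mean of the log2 values by 0.033 (two-sided exact permutation p = 0.9 and 0.1). Counts of falls moved by over 1.5 times after quantile normalization in the MLLT3 partners (10 against 6), the HOX list (2 against 1) and the SOX family (2 against 1). Without _x_at and _s_at probe sets 2 genes of the HOX list rose in place of 4, and 4 rose and 1 fell in the Musashi list in place of 7 and 3. Falls among WT1 partners and targets were 4 in place of 7 with no filter, without induced replicate 2 and without uninduced replicate 2. The cause of these shifts was not tested.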
